A study of Mus musculus with 18 samples.

Results

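The 36 genes described here are the interferon response genes and the MHC class I genes of the mouse retina, chosen by gene symbol from a fixed list. Symbols of 35 of the 36 were found among 34800 genes, and 32 of them passed the filter on low counts, which left 16183 genes in all. The symbol Ifi27 was not among the gene names of the files. In RefSeq the current gene Ifi27 carries the older symbol Ifi27l1, which is in the files at 8.62 to 30.7 CPM (reads per gene scaled to a common library size), but it was not counted as a member. Nlrc5, Oas1a and Psmb9 were too low to be tested.

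Retinal RNA was sequenced in 18 libraries from male mice. WT mice were C57BL/6J (3 libraries), and Akita mice were heterozygous for the Ins2Akita mutation on a C57BL/6 background, which makes them diabetic (4 libraries). The WT + NACET (6 libraries) and Akita + NACET (5 libraries) groups received N-acetyl-L-cysteine ethyl ester, a cell-permeable cysteine precursor, in drinking water at 0.33 mg/mL, an intake of 50 mg/kg each day, begun at 4 weeks of age and kept up to 24 weeks, whereas the other groups drank water. The sources used here do not state whether each library is 1 mouse, so the p-values measure the spread between libraries. Ins2, the mutated gene, gave 9 counts at most in a library, too few to check the genotype.

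Interferons are secreted alarm signals. Type I interferons activate JAK kinases, and a complex that holds STAT2 and IRF9 then binds the interferon-stimulated response element (ISRE) in target promoters, while interferon gamma acts at gamma-activated sites (GAS). The targets include antiviral effectors and the machinery that presents peptides on MHC class I molecules. In the retina, neurons express little class I, and microglia and vascular cells are among the cells that respond.

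The promoters of the 9 genes called in at least 1 comparison are shown first, because the ISRE and the GAS are the elements at which interferon signals meet their targets. Sequences are from RefSeq, build GRCm38.p6, from 250 bases before to 50 bases after the transcription start, written 5′ to 3′ along the gene, with the ISRE core (GAAA, any 2 bases, GAAA, on either strand) and the GAS core (TTC, any 3 bases, GAA) in capitals. Of the 9 genes, 4 hold an ISRE core (Bst2, Gbp2, B2m and Stat2) and 5 do not. Irf9 and H2-K1 have 2 listed starts each, of which the first is printed, and neither window holds a core.
Bst2, chr8:71537423-71537722, minus strand: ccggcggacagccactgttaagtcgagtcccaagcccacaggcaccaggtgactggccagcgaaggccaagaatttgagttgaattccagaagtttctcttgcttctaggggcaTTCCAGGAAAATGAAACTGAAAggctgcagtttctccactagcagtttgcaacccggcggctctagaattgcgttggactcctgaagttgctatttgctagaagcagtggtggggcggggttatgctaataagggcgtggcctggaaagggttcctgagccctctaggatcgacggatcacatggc
Gbp2, chr3:142620413-142620712, plus strand: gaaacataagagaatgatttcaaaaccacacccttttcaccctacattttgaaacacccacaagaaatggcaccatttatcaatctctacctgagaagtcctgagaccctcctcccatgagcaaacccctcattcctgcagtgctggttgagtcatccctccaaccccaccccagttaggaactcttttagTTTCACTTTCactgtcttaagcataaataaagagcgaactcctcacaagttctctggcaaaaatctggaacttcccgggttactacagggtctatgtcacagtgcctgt
B2m, chr2:122147437-122147736, plus strand: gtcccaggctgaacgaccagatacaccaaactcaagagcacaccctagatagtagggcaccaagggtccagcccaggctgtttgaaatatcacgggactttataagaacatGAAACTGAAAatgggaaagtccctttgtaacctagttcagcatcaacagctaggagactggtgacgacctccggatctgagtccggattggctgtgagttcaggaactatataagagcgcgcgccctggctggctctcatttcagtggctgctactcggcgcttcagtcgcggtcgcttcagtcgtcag
Stat2, chr10:128270248-128270547, plus strand: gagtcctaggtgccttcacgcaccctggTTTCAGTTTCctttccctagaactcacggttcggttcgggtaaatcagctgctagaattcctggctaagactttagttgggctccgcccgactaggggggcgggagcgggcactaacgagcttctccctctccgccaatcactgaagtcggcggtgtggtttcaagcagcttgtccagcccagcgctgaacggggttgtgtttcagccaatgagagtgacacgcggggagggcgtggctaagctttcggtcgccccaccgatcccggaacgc
Irf9, chr14:55603735-55604034, plus strand: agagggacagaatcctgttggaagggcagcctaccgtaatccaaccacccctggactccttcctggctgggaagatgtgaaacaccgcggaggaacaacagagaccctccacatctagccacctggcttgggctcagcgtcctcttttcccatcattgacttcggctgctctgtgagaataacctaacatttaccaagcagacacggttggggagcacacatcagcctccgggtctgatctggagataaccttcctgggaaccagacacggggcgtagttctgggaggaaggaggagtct
Lgals3bp, chr11:118401910-118402209, minus strand: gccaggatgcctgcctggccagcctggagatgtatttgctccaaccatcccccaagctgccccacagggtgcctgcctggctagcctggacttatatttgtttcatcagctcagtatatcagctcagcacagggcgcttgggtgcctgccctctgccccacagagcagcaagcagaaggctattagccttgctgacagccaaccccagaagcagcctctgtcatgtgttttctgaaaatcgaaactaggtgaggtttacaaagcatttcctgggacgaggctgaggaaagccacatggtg
H2-K1, chr17:34000284-34000583, minus strand: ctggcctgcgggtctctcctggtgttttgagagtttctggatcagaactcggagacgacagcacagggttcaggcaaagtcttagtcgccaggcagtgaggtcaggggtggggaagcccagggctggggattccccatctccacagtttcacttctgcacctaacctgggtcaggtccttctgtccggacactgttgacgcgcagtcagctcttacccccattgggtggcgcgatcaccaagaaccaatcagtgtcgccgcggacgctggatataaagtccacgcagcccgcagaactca
H2-D1, chr17:35262844-35263143, plus strand: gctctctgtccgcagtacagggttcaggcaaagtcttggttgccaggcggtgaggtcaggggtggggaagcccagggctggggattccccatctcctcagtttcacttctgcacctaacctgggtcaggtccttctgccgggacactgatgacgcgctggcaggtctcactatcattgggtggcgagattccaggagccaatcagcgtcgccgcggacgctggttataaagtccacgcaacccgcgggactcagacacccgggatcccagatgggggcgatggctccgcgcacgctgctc
Tapbp, chr17:33919228-33919527, plus strand: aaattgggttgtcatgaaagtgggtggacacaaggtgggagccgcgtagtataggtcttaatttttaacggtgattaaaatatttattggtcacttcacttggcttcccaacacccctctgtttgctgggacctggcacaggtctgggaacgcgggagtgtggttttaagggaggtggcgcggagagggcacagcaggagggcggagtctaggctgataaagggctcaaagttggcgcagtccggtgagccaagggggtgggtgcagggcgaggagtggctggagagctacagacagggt

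Promoters were found for 30 of the 36 genes, and 13 of these (43.3%) held at least 1 ISRE core. Of the 27025 genes in the promoter table, 3.99% did. The GAS core was found in 7 of the 30 genes (23.3%) and in 9.55% of all genes in the table. By role, the ISRE core was in 9 of 15 effectors with a promoter, in 2 of 3 RNA sensors, in 1 of 4 transcription factors, in 1 of 5 class I and peptide loading genes (B2m) and in 0 of 3 immunoproteasome subunits. In Bst2 overlapping ISRE cores are overlapped in turn by a GAS core. A match is only a match of letters. The genes without one may hold the element outside this window, or inside it in a form that this strict core misses. In the windows of H2-K1 and H2-D1, the stretch agtttcacttct comes close to the core without matching it.

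The levels of the genes spanned several orders of magnitude. Per kilobase of exon, H2-D1, a classical class I heavy chain, was the highest at 48.5 ± 5.88 CPM per kilobase (SD, n = 18 libraries). Next came Tapbp, which encodes tapasin and bridges class I molecules to the peptide transporter, at 46.1 ± 9.29, and B2m, the class I light chain, at 36.1 ± 14.0 CPM per kilobase. H2-D1, Tapbp and B2m did not differ beyond their spread.

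The other classical heavy chain, H2-K1, was at 8.35 ± 1.44 CPM per kilobase. Among the effectors, Ifitm3, which blocks viral entry, was at 19.3 ± 15.8 CPM per kilobase, while Ifi44 was at 0.0414 ± 0.0453. Only 6 of the 34 steps between neighbours in the order of levels exceeded the larger SD of the pair. Psmb9, an immunoproteasome subunit, had at most 1 count per library. The annotation holds overlapping gene IDs for it, and the counting left out reads over exons shared between genes. Ifnb1, an interferon ligand, had 1 count in a single WT library, and Ifng was at 0 in all 18. With 11495596 to 17814479 counts in genes per library, a transcript this rare was not detectable at this depth.

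**Figure D1:**
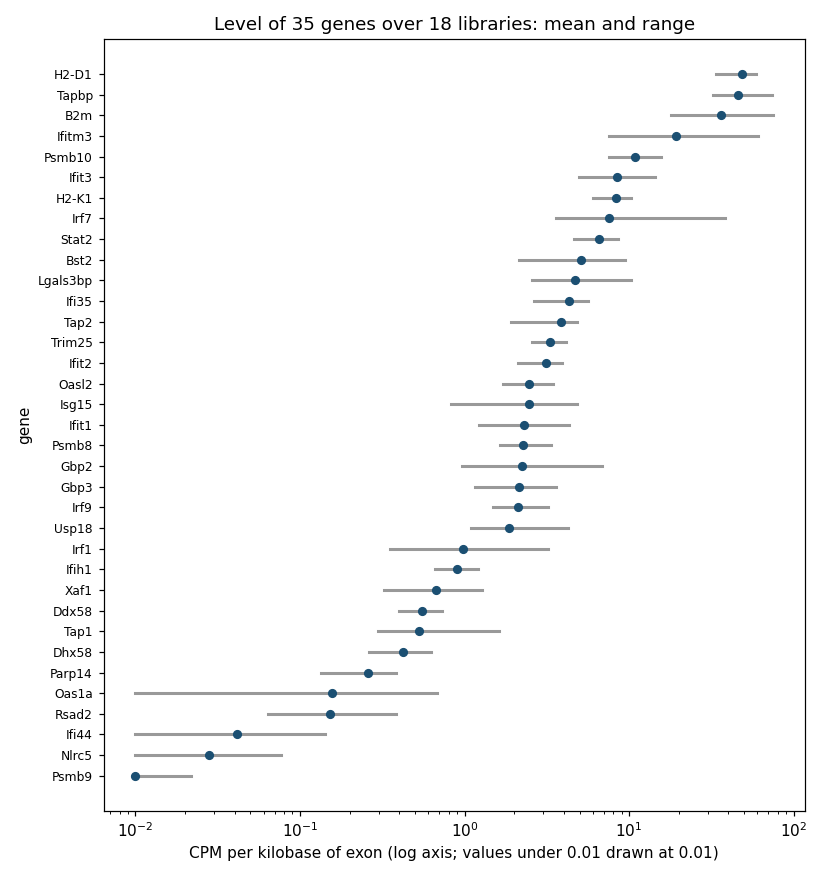
Mean level (points) and range (lines) of the 35 genes found, over 18 libraries, in CPM per kilobase of exon on a log axis. H2-D1, Tapbp and B2m are at the top, and Nlrc5 and Psmb9 at the bottom.

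The libraries did not vary evenly. Of the 32 tested genes, 12 had their highest level of all 18 libraries in WT + NACET replicate 1 and 7 in WT + NACET replicate 5. These libraries together held the highest level of 59.4% of the genes, against 12.4% of all genes tested. The mean deviation from the gene mean was 0.68 in WT + NACET replicate 1 and 0.49 in replicate 5 on the log2 CPM scale, against -0.30 to 0.21 in the other libraries. The effectors deviated most, by 0.91 in WT + NACET replicate 1 and 0.76 in replicate 5.

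The profiles of these libraries differed in part. The genes highest in WT + NACET replicate 1 came from several roles, among them Isg15, Ifit1, Usp18, Rsad2, Ddx58 and Irf9. Irf1, a transcription factor of the interferon response, was at 12.7 CPM there against 1.41 to 5.35 CPM elsewhere. Tap1, a subunit of the peptide transporter, was at 8.84 CPM against 1.62 to 3.72 CPM. Immunity-related GTPases, which are not members and were chosen after their values were seen, showed the same pattern, with Irgm2 at 33.5 CPM against 1.08 to 6.66 CPM, Igtp at 35.7 against 5.36 to 9.63 CPM, and Tgtp1 at 8.59 against 0 to 0.681 CPM.

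WT + NACET replicate 5 and WT replicate 2 shared a high level of 1 pigment gene, singled out from its list after the values were seen. Mlana, a melanosome protein gene, was at 72 CPM in WT + NACET replicate 5 and 51.5 CPM in WT replicate 2, against 0.5 to 11.6 CPM elsewhere. The list of 8 pigment epithelium markers that holds Mlana summed to 518 CPM in WT + NACET replicate 5, the lowest of its group, and to 679 CPM in WT replicate 2, the highest of its group. The 7 class II genes summed to 81.6 CPM in WT + NACET replicate 5, 56.9 CPM in WT replicate 2, 54.5 CPM in WT + NACET replicate 1 and 45.0 CPM in Akita replicate 3, against 8.62 to 31.6 CPM in the other libraries. WT + NACET replicate 5 and WT replicate 2 also had more Ifitm3 and Lgals3bp than their group mates other than WT + NACET replicate 1. Cd3e and Ms4a1, which define T and B cells, had 0 counts in every library. The 10 leukocyte markers were low throughout but summed highest in WT + NACET replicate 1 (1.78 CPM) and replicate 5 (1.43 CPM). In the other libraries their sum was 0.359 to 1.24 CPM. The part of other cell types in the results was not tested.

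**Figure D2:**
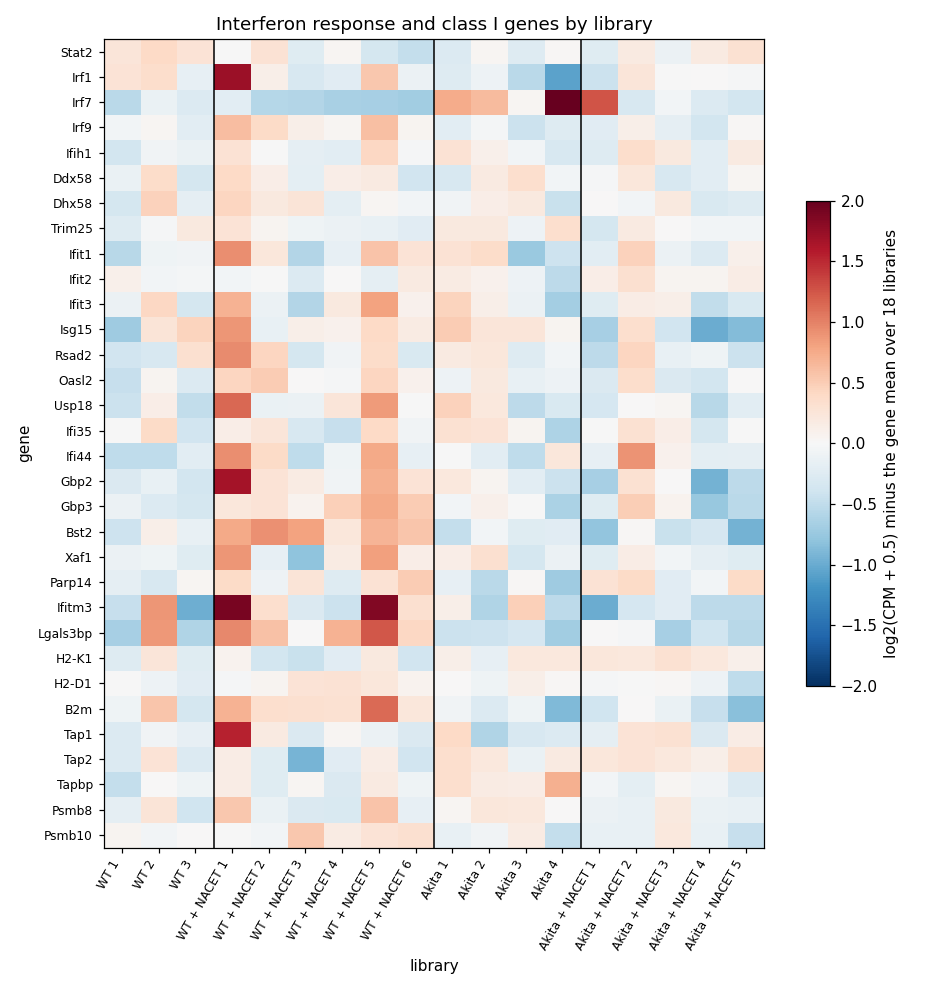
Each row is 1 of the 32 tested genes and each column 1 of 18 libraries, with colour giving log2(CPM + 0.5) minus the gene mean over all libraries. Red rows gather in WT + NACET replicates 1 and 5, while Irf7 is red in Akita replicate 4 and Akita + NACET replicate 1.

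WT + NACET libraries also differed from every other library at genes outside the interferon response. Wdfy1, a gene chosen after its values were seen, was at 89 to 103 CPM in the 6 WT + NACET libraries and at 12.4 to 17.0 CPM in the other 12, with no overlap. In comparisons with WT + NACET, the effect of NACET and any other difference of those mice cannot be told apart.

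The share of reads outside annotated exons was 11.5 ± 1.83% in Akita (SD, n = 4) and 16.4 ± 2.1% in Akita + NACET (n = 5), and these groups did not overlap (exact two-sided permutation p = 0.00794, the smallest possible, adjusted p = 0.0476 over 6 pairs). It was 16.3 ± 1.24% in WT and 12.7 ± 2.74% in WT + NACET. Its values are given because it moved with the groups. With it as a covariate, only Bst2 and Irf9 of the genes below were still called, both in Akita + NACET vs WT + NACET. That loss ran through all genes, of which 0 were called in Akita vs WT, 0 of them in Akita + NACET vs Akita, 194 in Akita + NACET vs WT + NACET and 17 for the interaction, against 1237, 1562, 2148 and 3289 without the covariate.

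The first comparison asked which genes differed in diabetic retinas. In Akita vs WT, 1 of 32 tested genes was called (3.12%), against a background of 7.64% of all 16183 genes tested. A gene is called at an adjusted p of at most 0.05 from edgeR's quasi-likelihood test. The median log2 fold change of the 32 genes was 0.13, against -0.01 over all genes. The gene called was Tapbp.

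Tapbp was at 107, 150 and 140 CPM in WT, and at 189, 168, 166 and 244 CPM in Akita. The 4 Akita libraries were all above the 3 WT libraries. The log2 fold change was 0.53 ± 0.14 (SE; edgeR adjusted p = 0.0320), a 1.45-fold higher level. The call was lost without WT replicate 1 or 2 or Akita replicate 1 or 4, with adjusted p between 0.0502 and 0.182, with WT and Akita alone in the fit, and with the replicate number as a block. Over all genes, calls in this comparison fell from 1237 to 0 without WT replicate 1 or 2 and to 234 without Akita replicate 4. Akita replicate 4 stands apart in general, with the highest level of 20.2% of all tested genes.

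NACET was compared within Akita mice next. In Akita + NACET vs Akita, 1 of 32 genes was called (3.12%), against 9.65% of all genes, and again it was Tapbp. It was at 144, 131, 153, 142 and 124 CPM in Akita + NACET, below every Akita library, with a log2 fold change of -0.46 ± 0.12 (edgeR adjusted p = 0.0300). The median over the 32 genes was -0.06, against 0.00 over all genes. The call was lost without Akita replicate 1 or 4 or Akita + NACET replicate 2 or 5, with adjusted p between 0.0524 and 0.109, and with the replicate number as a block. Over all genes, calls fell from 1562 to 1 without Akita replicate 4, to 101 without Akita + NACET replicate 5 and to 425 without Akita + NACET replicate 2.

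Both comparisons share the Akita libraries. Of 8 rod photoreceptor markers, 3 were called higher in Akita vs WT and 6 lower in Akita + NACET vs Akita, and their part in the Tapbp values was not tested. Tapbp in WT + NACET ran from 122 to 170 CPM with a median of 147 CPM, so the 3 other groups overlapped. WT + NACET overlapped Akita as well, whose lowest library was at 166 CPM. The interaction, the NACET effect in Akita minus that in WT, was -0.61 ± 0.18 on the log2 scale (edgeR adjusted p = 0.0256). In Akita + NACET vs WT, 0 of 32 genes were called, against a background of 0.00618% called. An unadjusted p under 0.05 was reached there by 0 of the 32 genes and by 750 of all 16183. DESeq2 also called 0 of the 32 genes there. Over all genes it called 11 of 27360 in a fit of all groups and 28 of 24794 in a fit of these 2 groups.

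Among the other genes of the pathway, 2 of 76 tested were called in Akita vs WT (2.63%, against 7.64% of all genes), both higher. These were Daxx, a chromatin regulator induced by interferon, with a log2 fold change of 0.47 ± 0.11 (edgeR adjusted p = 0.0214), and Ifngr1, a chain of the interferon gamma receptor, with 0.40 ± 0.12 (adjusted p = 0.0451). In Akita + NACET vs Akita, 3 of 76 were called (3.95%, against 9.65%). Ifngr1 and Daxx fell, by 0.42 and 0.30 on the log2 scale. In mm9, Daxx (chr17:34046359-34052534) ends just before Tapbp (chr17:34052844-34066235) starts, both on the plus strand. Their calls may not be separate results, and what links them was not tested. H2-T24, a non-classical class I gene, rose by 0.88 ± 0.27 (edgeR adjusted p = 0.0465).

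Irf7, the transcription factor that amplifies type I interferon production, was uneven between libraries. It was at 12.1, 16.3 and 14.7 CPM in WT, at 30.2, 28.1, 18.5 and 116 CPM in Akita, and at 43.5, 14.3, 17.2, 14.8 and 13.8 CPM in Akita + NACET. WT + NACET libraries ran from 10.9 to 15.4 CPM with a median of 11.5 CPM. Every Akita library was above every WT library, as for Tapbp, and Akita replicate 4 held the largest value of both genes. The spread of Irf7 within Akita was wide.

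Irf7 was not called in Akita vs WT, where the log2 fold change was 1.74 ± 0.57 (edgeR adjusted p = 0.0713), nor in Akita + NACET vs Akita, with -1.21 ± 0.47 (adjusted p = 0.106). Without Akita replicate 4 these changes were 0.84 and -0.31, and without Akita + NACET replicate 1 both were called, with adjusted p = 0.0427 and 0.0305. Without Akita replicate 3 the first was called as well (adjusted p = 0.0408).

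Drd4, a dopamine receptor gene that lies 25.5 kb away on chromosome 7 and was chosen after its values were seen, showed a like order. It was at 401, 392, 261 and 941 CPM in Akita, and at 549, 211, 228, 237 and 218 CPM in Akita + NACET, so the 4 highest libraries were the same for both genes and in the same order. In mm9, Irf7 is at chr7:148448605-148452380 on the minus strand and Drd4 at chr7:148477929-148482362 on the plus strand, with 2 genes between them. Other genes of the list went both ways in Akita replicate 4. Tapbp and Trim25 had their highest level of all libraries there, at 244 and 23.9 CPM. Ifit2 and Ifit3 had their lowest Akita level there, at 8.29 and 8.62 CPM. What links Irf7 and Drd4 was not tested.

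**Figure D3:**
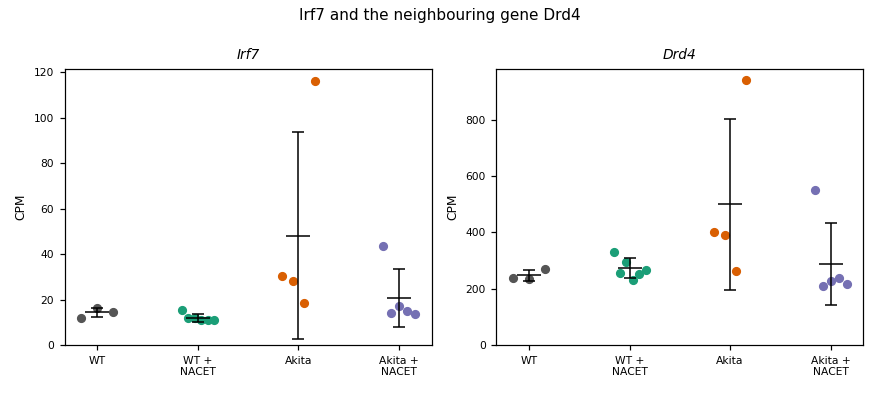
CPM of Irf7 and of the neighbouring gene Drd4 in each library (points), with group means and SD (bars). Akita replicate 4 has the highest point in both panels, at 116 and 941 CPM.

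NACET in WT mice gave no call among the 32 genes, against a background of 1.48% of all genes. An unadjusted p under 0.05 was reached by 10 of the 32 genes and by 3162 of all 16183. DESeq2 called 1 of the genes in a fit of all groups (705 of 27360 over all genes) and 2 in a fit of WT and WT + NACET alone (943 of 25578). The median log2 fold change was 0.32, against -0.01 over all genes, and 25 of the 32 estimates were above 0. Effectors had a median of 0.55 and RNA sensors of 0.12. Without calls, these medians describe the estimates and not a change of the group.

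Bst2, which encodes tetherin and holds budding virus particles at the cell surface, was nearest to a call. It was at 2.58, 3.92 and 3.19 CPM in WT, and in WT + NACET from 4.26 to 7.22 CPM with a median of 6.22 CPM. The groups did not overlap. The log2 fold change was 0.89 ± 0.23 (edgeR adjusted p = 0.0539), and it was called without Akita replicate 4, without Akita + NACET replicate 1, 2 or 5, or without WT + NACET replicate 4, with adjusted p between 0.0298 and 0.0478. Without WT replicate 2, Lgals3bp was called in its place.

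The most calls came from the comparison of genotypes under NACET. In Akita + NACET vs WT + NACET, 7 of 32 genes were called (21.9%), 6 lower and 1 higher, against 13.3% of all genes. Lower and higher are relative to WT + NACET here, not to untreated Akita. The median log2 fold change was -0.34, against 0.00 over all genes. By role, the calls were 3 of 16 effectors (all lower), 3 of 6 class I and peptide loading genes (2 lower and 1 higher) and 1 of 4 transcription factors (lower), with 0 of 4 RNA sensors and 0 of 2 immunoproteasome subunits.

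**Figure D4:**
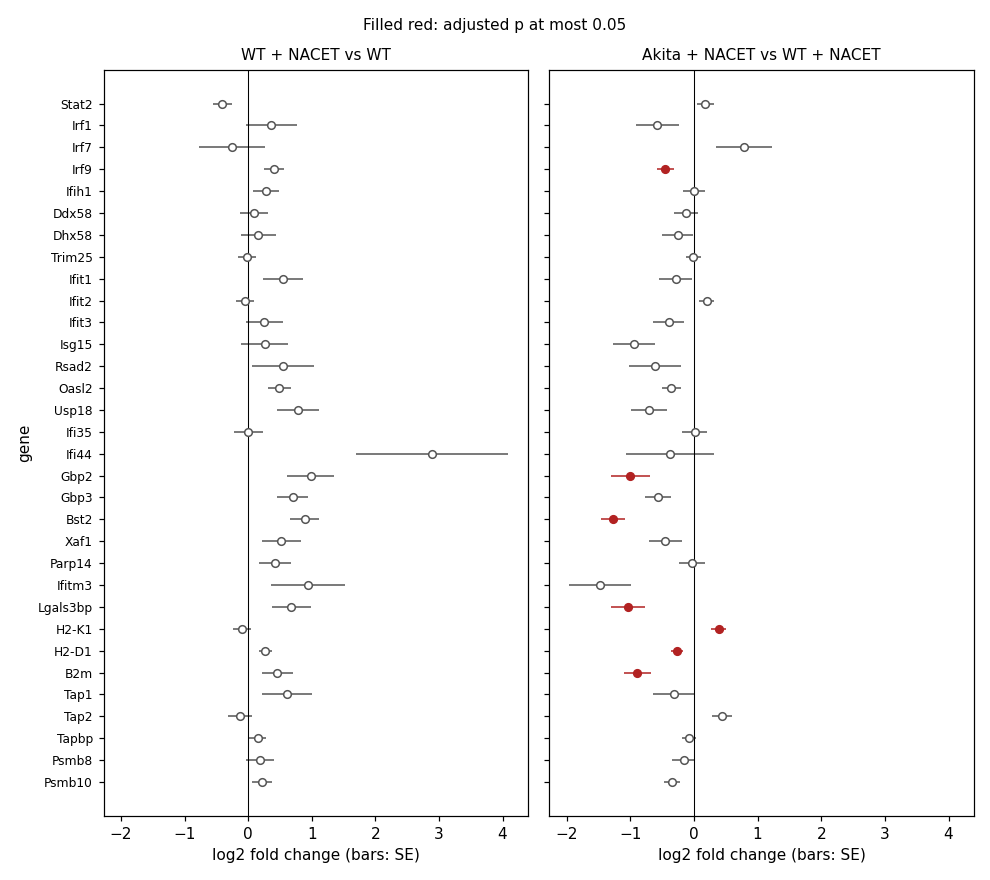
Log2 fold change (points) and SE (bars) of the 32 tested genes in WT + NACET vs WT and in Akita + NACET vs WT + NACET, with filled red points for genes called at an adjusted p of at most 0.05. The first panel has 0 filled points and the second 7, of which only H2-K1 is above 0.

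Among the effectors, Bst2 differed most clearly. It was at 1.86, 3.65, 2.49, 2.73 and 1.63 CPM in Akita + NACET, all below the 6 WT + NACET libraries, with a log2 fold change of -1.27 ± 0.19 (edgeR adjusted p = 0.000604). Akita libraries, at 2.45, 3.42, 2.95 and 2.98 CPM, lay within the range of WT but for the lowest, against 2.58 to 3.92 CPM in WT. The call stood in every alternative run, and the interaction was -1.14 ± 0.32 (edgeR adjusted p = 0.0176), which was lost without WT replicate 1 (adjusted p = 0.0603).

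Lgals3bp encodes a secreted galectin-binding glycoprotein induced by interferon. Without NACET it ran from 7.4 to 22.4 CPM in WT and from 7.29 to 9.42 CPM in Akita. It was at 12.2, 11.8, 7.47, 9.07 and 8.10 CPM in Akita + NACET, and in WT + NACET from 12.1 to 29.1 CPM with a median of 19.1 CPM. A single WT + NACET library reached into the Akita + NACET range. The log2 fold change was -1.04 ± 0.27 (edgeR adjusted p = 0.0190), and the call was lost without Akita + NACET replicate 5 (adjusted p = 0.0635) and without WT + NACET replicates 1 and 5 together (-0.77, adjusted p = 0.0808).

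Gbp2, an interferon-induced GTPase that acts on vacuoles holding pathogens, was at 3.03, 6.42, 5.17, 2.42 and 3.40 CPM in Akita + NACET, and in WT + NACET from 4.82 to 17.2 CPM with a median of 6.28 CPM. The groups overlapped, and the highest value was that of WT + NACET replicate 1. Without NACET, Gbp2 ran from 3.85 to 4.56 CPM in WT and from 3.65 to 6.03 CPM in Akita. The log2 fold change was -1.0 ± 0.30 (edgeR adjusted p = 0.0381). Without WT + NACET replicate 1 it was -0.64 (adjusted p = 0.0649), and the call was also lost without WT + NACET replicate 5 or Akita + NACET replicate 1, 4 or 5 (adjusted p up to 0.108).

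Irf9, the DNA-binding partner of STAT2, was at 9.37, 12.1, 9.76, 8.45 and 11.2 CPM in Akita + NACET, and in WT + NACET from 11.4 to 17.2 CPM with a median of 13.2 CPM. The groups overlapped at 1 Akita + NACET library. Without NACET, Irf9 ran from 9.51 to 11.4 CPM in WT and from 8.04 to 10.8 CPM in Akita. The log2 fold change was -0.45 ± 0.13 (edgeR adjusted p = 0.0322). Without either of WT + NACET replicates 1 and 5, or without Akita + NACET replicate 1, 3, 4 or 5, it was not called (adjusted p between 0.0516 and 0.0860).

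The class I genes split. B2m was at 21.9, 29.4, 26.4, 20.9 and 16.1 CPM in Akita + NACET, and in WT + NACET from 34.1 to 64.5 CPM with a median of 36.7 CPM. The groups did not overlap. Without NACET, B2m ran from 22.8 to 43.0 CPM in WT and from 15.5 to 27.6 CPM in Akita. The log2 fold change was -0.89 ± 0.21 (edgeR adjusted p = 0.0134), and the call stood without each library in turn and without WT + NACET replicates 1 and 5 together (-0.65, adjusted p = 0.0485).

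H2-D1 was at 122, 124, 127, 116 and 87.3 CPM in Akita + NACET, and in WT + NACET from 123 to 152 CPM with a median of 139 CPM. H2-K1 went the other way, at 25.2, 24.8, 26.5, 24.8 and 23.1 CPM in Akita + NACET and from 15.6 to 24.7 CPM, with a median of 17.5 CPM, in WT + NACET. Both groups of values overlapped. Without NACET, H2-D1 ran from 107 to 124 CPM in WT and from 118 to 135 CPM in Akita. H2-K1 ran from 17.9 to 25.4 CPM and from 19.2 to 25.0 CPM in these groups. The log2 fold changes were -0.27 ± 0.09 for H2-D1 (edgeR adjusted p = 0.0466) and 0.39 ± 0.12 for H2-K1 (adjusted p = 0.0425).

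Both of these calls were fragile. That of H2-D1 was lost without any 1 of 13 libraries (all but Akita replicates 3 and 4, Akita + NACET replicate 3 and WT + NACET replicates 1 and 2), with adjusted p between 0.0509 and 0.126, and the fold change was -0.18 without Akita + NACET replicate 5. That of H2-K1 was lost without any 1 of 10 libraries (Akita replicate 1, each Akita + NACET library and WT + NACET replicates 2, 3, 4 and 6), with adjusted p between 0.0516 and 0.0996. Class I heavy chain genes are near-identical in part, and the counting dropped reads with several alignments, so the split of reads between H2-D1, H2-K1 and their relatives is uncertain.

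Isg15, a ubiquitin-like modifier, and Ifitm3 were the nearest of the genes not called. Isg15 was at 0.896, 2.30, 1.21, 0.621 and 0.718 CPM in Akita + NACET and at 1.5 to 3.62 CPM in WT + NACET, with a median of 1.94 CPM (log2 fold change -0.94 ± 0.33, edgeR adjusted p = 0.0601). Ifitm3 was at 5.10, 8.37, 9.06, 7.27 and 7.31 CPM in Akita + NACET. In WT + NACET it ran from 7.78 to 41.0 CPM with a median of 13.5 CPM, and the log2 fold change was -1.48 ± 0.49 (edgeR adjusted p = 0.0591). The 2 highest values were those of WT + NACET replicates 1 and 5. Without NACET, Isg15 ran from 0.862 to 2.53 CPM in WT and from 1.82 to 2.67 CPM in Akita. Ifitm3 ran from 5.18 to 20.1 CPM and from 6.83 to 15.1 CPM in these groups.

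**Figure D5:**
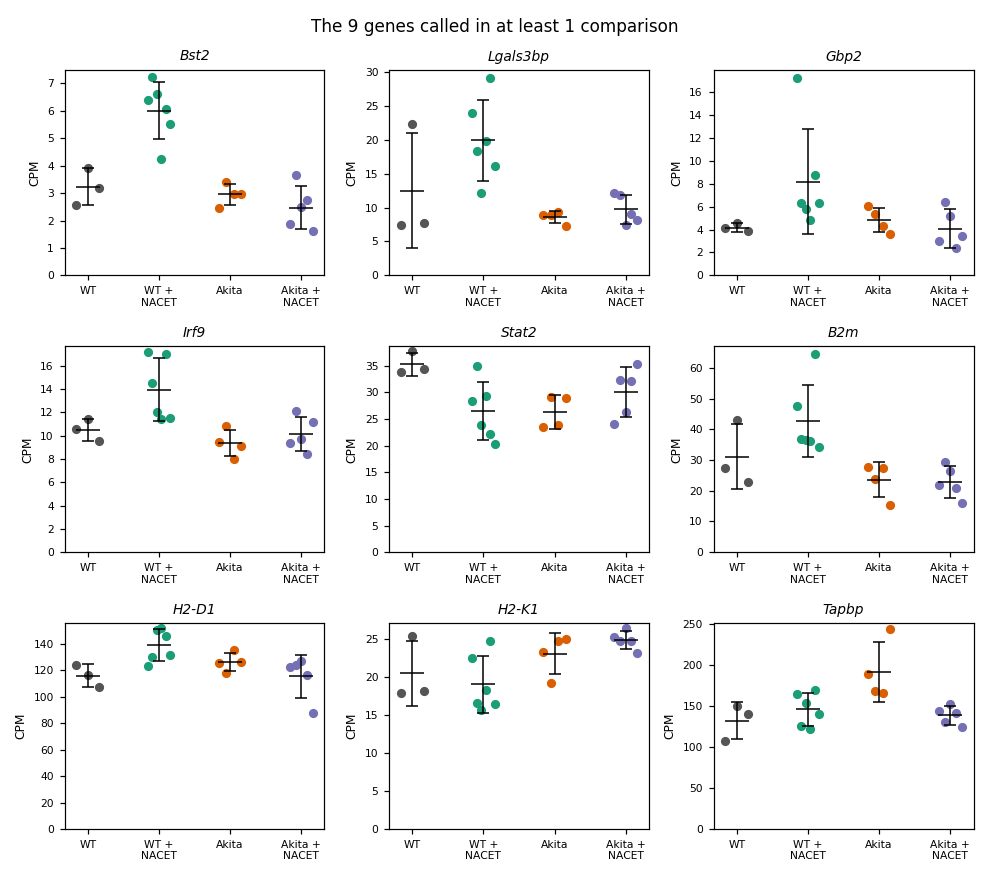
CPM of the 9 genes called in at least 1 comparison, for each library (points), with group means and SD (bars). Bst2 and B2m in Akita + NACET lie below every WT + NACET library, and Tapbp in Akita lies above every WT library.

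Markers of several cell types moved in the same comparison. Of 12 microglia markers, 7 were called (58.3%, against 13.3% of all genes), and all 7 were lower in Akita + NACET. Among them was C1qa, a complement subunit made by microglia, with a log2 fold change of -0.99 ± 0.22 (edgeR adjusted p = 0.00775). Summed over the 12 microglia markers, the level was 37.4 to 62.6 CPM in Akita + NACET and 67.7 to 98.6 CPM in WT + NACET. It was 34.1 to 66.8 CPM in Akita and 48.8 to 73.6 CPM in WT. Of the other lists, 3 of 8 rod, 2 of 8 Mueller glia and astrocyte and 1 of 7 pericyte and smooth muscle markers were called, all lower. Of 5 blood markers, 3 were called, all higher. The endothelial and pigment epithelium lists had 0 of 12 and 0 of 8 called. In bulk tissue, fewer cells of a type and less RNA per cell cannot be told apart. The part of microglia or of any other cell type in the interferon genes called in this comparison was not tested.

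Of the other pathway genes, 12 of 76 were called in this comparison, 10 lower and 2 higher, a share of 15.8% that is near the 13.3% of all genes. The 5 with the smallest p were all lower. They were Socs3, a feedback inhibitor of JAK-STAT signalling (log2 fold change -0.98 ± 0.18, edgeR adjusted p = 0.00290), the class I chaperones Canx (-0.34 ± 0.07, adjusted p = 0.00416) and Pdia3 (-0.41 ± 0.09, adjusted p = 0.00667), the proteasome subunit Psmb7 (-0.43 ± 0.11, adjusted p = 0.0142) and the interferon gamma receptor chain Ifngr2 (-0.32 ± 0.08, adjusted p = 0.0172). Psmb7 is from the list of constitutive proteasome subunits, of which 1 of 3 was called, so the pathway lists are not all interferon-induced genes. Class II genes had 0 of 7 called.

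For the interaction, 3 of 32 genes were called (9.38%), against 20.3% of all genes. Besides Bst2 and Tapbp, the third was Stat2, the signal transducer of type I interferon. It was at 33.7, 37.7 and 34.4 CPM in WT, at 23.4, 29.1, 23.8 and 28.9 CPM in Akita, and at 24.0, 32.2, 26.2, 32.1 and 35.3 CPM in Akita + NACET. In WT + NACET it ran from 20.3 to 34.9 CPM with a median of 26.2 CPM. WT was above Akita in every library and overlapped the groups given NACET.

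The Stat2 interaction was 0.60 ± 0.20 on the log2 scale (edgeR adjusted p = 0.0426), opposite in sign to that of Bst2. It was -0.06 once the share outside exons entered as a covariate. It was lost without any 1 of 10 libraries (WT replicates 1 and 2, WT + NACET replicates 3, 5 and 6, Akita replicates 1 and 3, and Akita + NACET replicates 2, 4 and 5), with adjusted p between 0.0595 and 0.106. The Tapbp interaction was lost without WT replicate 1 (adjusted p = 0.0955), without WT + NACET replicates 1 and 5 together (adjusted p = 0.0645) and with the replicate block. In either direction, 10 of the 76 other pathway genes were called (13.2%, against 20.3%), 7 negative and 3 positive.

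The remaining genes gave no call in any comparison of the edgeR fit of all libraries. These were the 4 RNA sensors (Ifih1, Ddx58, Dhx58 and Trim25), of which Trim25 ran from 14.7 to 23.9 CPM and Dhx58 from 0.912 to 2.16 CPM over all libraries. They were also Ifit1, Ifit2, Ifit3, Rsad2, Oasl2, Usp18, Ifi35, Ifi44, Gbp3, Xaf1 and Parp14 among the effectors. The rest were Irf1 among the transcription factors, Tap1 and Tap2 of the peptide transporter, and Psmb8 and Psmb10 of the immunoproteasome. Psmb8 ran from 4.46 to 9.15 CPM over all libraries. DESeq2 called more of the tested genes in some comparisons, and those may include genes named here.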

How the data were processed

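Groups were taken from the sample labels. The authors, per the methods of the study, made TruSeq RNA v2 libraries, sequenced them single end, aligned the reads to mm9 with TopHat2 2.1.0 and counted them per gene over exons with HTSeq 0.11.2, without strand and without reads aligned to several places. The deposited files hold these counts, raw and not normalized. Overlapping genes share reads that cannot be assigned, which touches all exon bases of Psmb9, 18.5% of those of Tap2 and 16.8% of Ifi35, and 1.5% to 6.8% of Psmb8, Dhx58, Tap1, Irf1, Irf9, Tapbp and Irf7.

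Ribosomal RNA genes (206 names) and 1 row without a name (0.00544% of counts) were left out. CPM used TMM-scaled library sizes. The test was edgeR 4.0.16 in R 4.3.3 (quasi-likelihood, minimum count 10, minimum total 15, all 4 groups in 1 fit), with Benjamini-Hochberg adjustment over 16183 genes, and it was tested on simulated data. The SE was derived from the F statistic. DESeq2 1.42.0, other filters and scalings, 2-group fits, a replicate block and each library left out were the alternatives.

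Members and lists were chosen with earlier results of these data known. Genes with values per library were those called in any comparison, the 3 highest class I genes per kilobase and the 3 further genes with the smallest p. For other pathway genes at most 5 called genes were named per comparison. Counts in genes ranged from 11495596 to 17814479 per library, and genes with few counts are less precise. No pair of replicates agreed within sampling noise.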

Additional observations from a re-analysis of the deposited data

Results flagged for a closer look

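Of 96 pairs of a gene and a group of 4 to 6 libraries, 10 had a library farther from the others than Dixon's 95% criterion allows, and chance flags about 1 in 20 groups. In WT + NACET replicate 1 these were the highest values of Irf1 (12.7 CPM), Irf7 (15.4 CPM), Gbp2 (17.2 CPM) and Tap1 (8.84 CPM). In Akita, Irf7 was highest in replicate 4 (116 CPM) and Oasl2 in replicate 2 (10.8 CPM). In Akita + NACET, the highest values were Irf7 in replicate 1 (43.5 CPM), Ifi44 in replicate 2 (0.825 CPM) and Psmb8 in replicate 3 (6.96 CPM), and the lowest was H2-D1 in replicate 5 (87.3 CPM).

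The difference between NACET and water groups was not the same in the 2 genotypes by the interaction term of edgeR for Stat2 (0.60 on the log2 scale), Bst2 (-1.14) and Tapbp (-0.61). With the share outside exons as a covariate, 0 of these calls remained and Stat2 was at -0.06. The interaction uses the WT + NACET libraries, in which NACET and other differences of those mice cannot be told apart.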

How the results depend on the processing

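With each library left out in turn, the number of the 32 genes called ranged from 0 to 2 in Akita vs WT and in Akita + NACET vs Akita (1 with all libraries), from 0 to 1 in WT + NACET vs WT (0), from 2 to 8 in Akita + NACET vs WT + NACET (7) and from 0 to 6 for the interaction (3), and was 0 throughout in Akita + NACET vs WT. Calls over all genes moved too, from 0 to 1612 in Akita vs WT and from 1 to 1754 in Akita + NACET vs Akita. They ran from 72 to 461 in WT + NACET vs WT and from 860 to 2710 in Akita + NACET vs WT + NACET. For the interaction they ran from 1699 to 3524, and in Akita + NACET vs WT from 0 to 2. Of the 32 genes, the number called in Akita vs WT was 0 without Akita replicate 1 (868 over all genes) or 4 (234) or WT replicate 1 (0) or 2 (0). It was 2 without Akita replicate 3 (1052) or Akita + NACET replicate 1 (1218). In Akita + NACET vs Akita it was 0 without Akita replicate 1 (808 over all genes) or 4 (1) or Akita + NACET replicate 5 (101). It was 2 without Akita + NACET replicate 1 (1543). In Akita + NACET vs WT + NACET it was 3 without Akita + NACET replicate 1 (1846 over all genes) or 4 (1343) and 2 without replicate 5 (860). For the interaction it was 0 without WT replicate 1 (1699 over all genes) and 6 without Akita + NACET replicate 2 (2577). With DESeq2 and all groups it was 2 in Akita vs WT (2080 over all genes) and 1 in WT + NACET vs WT (705). It was 11 in Akita + NACET vs WT + NACET (2751) and 5 for the interaction (3782). With DESeq2 and 2 groups it was 2 in WT + NACET vs WT (943 over all genes) and 11 in Akita + NACET vs WT + NACET (3032). With edgeR and 2 groups it was 0 in Akita vs WT (148 over all genes) and 1 in WT + NACET vs WT (269). DESeq2 size factors, or a mean count of at least 50, gave 1 in WT + NACET vs WT (245 and 302 over all genes).

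With the share outside exons as a covariate, there were 0 calls in Akita vs WT, 0 calls in Akita + NACET vs Akita, 2 in Akita + NACET vs WT + NACET and 0 for the interaction, where Stat2 turned to -0.06 and the median of the 32 genes was -0.67. Over all genes, this fit called 0, 0, 194 and 17, against 1237, 1562, 2148 and 3289. The cause was not tested. With all counted reads as denominator, the share in Akita + NACET exceeded that in Akita by 4.59 percentage points and was no longer called (adjusted p = 0.0714).

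Chosen after seeing the data, the fit without WT + NACET replicates 1 and 5 called 4 genes in Akita + NACET vs WT + NACET and 1 for the interaction. The fit without WT replicate 2 and WT + NACET replicate 5 called 0 in Akita vs WT (20 over all genes) and 1 in WT + NACET vs WT (67).

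Replicate numbers are shared between groups, but same-numbered libraries did not deviate together (correlations from -0.332 to 0.345), so the numbers were not read as pairs. With the replicate block, 0 genes were called in Akita vs WT, 0 genes in Akita + NACET vs Akita, 1 in WT + NACET vs WT, 6 in Akita + NACET vs WT + NACET and 4 for the interaction.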
